A study of Mus musculus with 3 samples.

Results

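The 10 genes described here encode effector molecules and surface markers of regulatory B cells (Bregs). They were taken by gene name from a table of 27088 genes: the cytokine genes Il10, Ebi3, Il12a and Tgfb1, the ligand gene Cd274, the adenosine-forming enzyme genes Entpd1 and Nt5e, and the surface marker genes Havcr1, Cd24a and Cd5. Each name was found once in the table.

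Bregs are B cells that restrain immune responses. They act through secreted cytokines, chiefly IL-10, but also TGF-β and IL-35, a heterodimer of the EBI3 and p35 chains, and through surface molecules such as PD-L1 and the enzymes CD39 and CD73. No single protein marks them all, and in the mouse spleen they are usually sought among cells high in CD1d, CD5, CD24 or TIM-1.

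B cells were sorted from spleens of female BALB/c mice, aged 6 weeks when the experiment began and 13 weeks old per the labels. Both groups compared here had ovalbumin (OVA)-induced allergic rhinitis. Their sensitization was by intraperitoneal OVA (10 μg) with 2 mg Al(OH)3 on days 0, 7 and 14, and intranasal OVA (100 μg) was given daily on days 21 to 27 and again on days 29 to 35. The PBS group had subcutaneous PBS on days 0, 14 and 28. On the same days the SJMHE1 group had 10 μg SJMHE1, a small peptide of Schistosoma japonicum, in incomplete Freund's adjuvant. The peptide and this adjuvant cannot be told apart, since the PBS injections held neither. On day 36 the spleens were taken, and the samples of 3 mice were mixed into 1 library per group, so the 2 libraries are compared without a replicate check and no p-value is given. The Control group of healthy mice was not analysed here.

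The libraries held 48267168 (PBS) and 51280237 (SJMHE1) counts. The B cell receptor gene Cd79a was at 835 FPKM in both (fragments per kilobase of transcript, scaled to library size), and of the 15 B cell markers none differed by more than 2-fold. Of the 18 T cell markers, in contrast, 16 were more than 2-fold lower in the SJMHE1 library. T cells also transcribe several genes described here, Il10, Tgfb1, Cd274 and Havcr1 among them. The part of the T cell markers in those values was not tested. In a pool of cells, fewer cells of one type and less RNA per cell cannot be told apart.

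The 10 genes covered a wide span of levels. In the PBS library the FPKM of Cd24a was 148, those of Cd274 and Tgfb1 were 38.5 each, and that of Il12a was 11.9. Entpd1, Ebi3 and Havcr1 followed at 5.64, 5.03 and 4.76, and Cd5, Il10 and Nt5e were lowest at 1.94, 1.78 and 1.15. Cd24a therefore stood 129 times above Nt5e on the FPKM scale. The counting intervals (95%, exact Poisson) of Cd274 and Tgfb1 overlapped, as did those of Entpd1 and Ebi3, of Ebi3 and Havcr1, and of Cd5 and Il10, so these neighbours were not ordered by the data. In the SJMHE1 library the order differed in 3 places: Tgfb1 stood above Cd274, Ebi3 above Entpd1, and Cd5 came last. All intervals here cover counting error only.

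**Figure D1:**
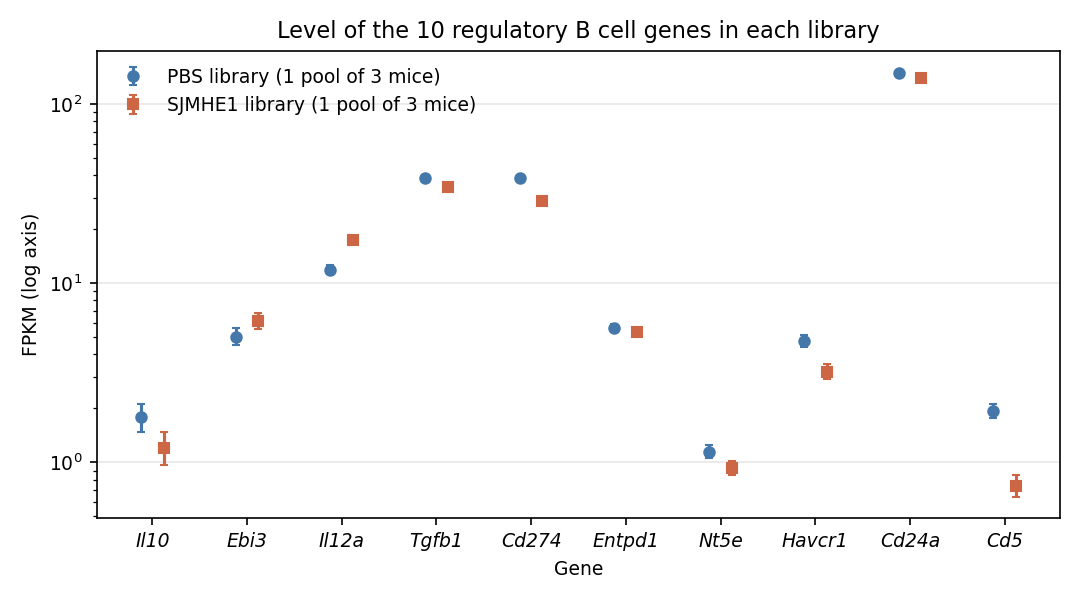
FPKM on a log axis of the 10 genes in the PBS library (circles) and the SJMHE1 library (squares), each 1 pool of 3 mice, with exact 95% Poisson intervals of the counts as bars. Cd24a lies highest in both libraries, at 148 and 139, and Cd5 shows the widest gap, from 1.94 to 0.74.

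Of the 10 genes, 8 had a lower and 2 a higher FPKM in the SJMHE1 library. The comparison took in 12433 genes, those that reached 1 FPKM in either library and were detected in both, and of these 51.9% were lower and 47.7% higher. Cd5 alone of the 10 had a log2 ratio below -1, as did 3.57% of all genes compared. None had a log2 ratio above 1, beside 2.43% of all genes compared. The median log2 ratio of the 10 genes was -0.23, beside -0.01 for all. The 95% counting interval of the ratio lay wholly below 0 for 7 genes and wholly above 0 for 2, and it included 0 for Entpd1. At this depth that is common, since the interval lay wholly below 0 for 34.5% and wholly above 0 for 31.0% of all genes compared. All 10 genes passed the filter, of which Nt5e and Cd5 passed through the PBS library only.

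**Figure D2:**
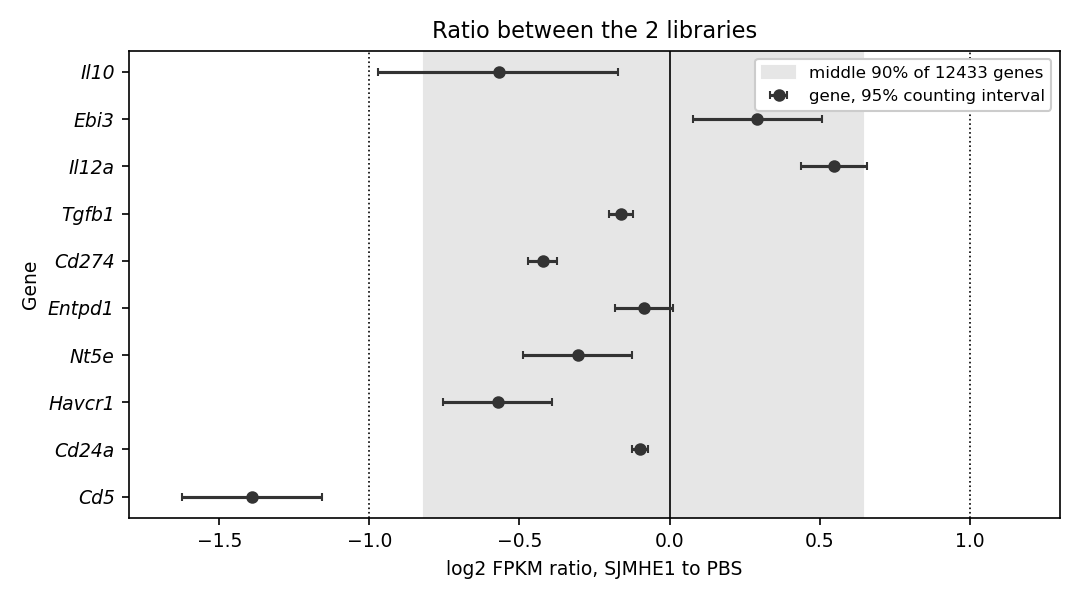
The log2 FPKM ratio of SJMHE1 to PBS (x axis) for each of the 10 genes (y axis), with 95% Clopper-Pearson counting intervals as bars, dotted lines at -1 and 1, and the range that holds the middle 90% of 12433 genes, -0.82 to 0.64, in grey. Cd5 lies left of the grey range at -1.39, Il12a lies furthest to the right at 0.55, and the other points lie between -0.57 and 0.29.

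IL-10 is the cytokine by which Bregs are most often defined. Il10 (ENSMUSG00000016529) (chromosome 1 from 131019845 to 131024974, plus strand, in GRCm38 as for all genes here) has 1 annotated transcript with 5 exons. The PBS library held 129 Il10 counts (1.78 FPKM) and the SJMHE1 library 92 counts (1.20 FPKM). The Il10 level was thus lower in the SJMHE1 library, and its few reads gave it the widest counting interval of the 10 genes. The log2 ratio was -0.57 (95% counting interval -0.97 to -0.17), or 0.674 times the PBS level, and 8.22% of all genes compared lay at least as far below 0. By its level Il10 lay near the middle of all expressed genes. It ranked 10350 in the PBS and 11357 in the SJMHE1 library by FPKM. Its FPKM was 0.0463 and 0.0349 times that of Tgfb1. T cells also transcribe Il10, and the part of the lower T cell markers in the Il10 value was not tested.

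The receptor genes stood well above the ligand gene in FPKM. Il10ra, the ligand-binding receptor chain, was at 46.9 and 54.8 FPKM in the PBS and SJMHE1 libraries. Of 14 genes of the receptor, its signalling and the factors known to act on Il10, none was higher and 2 were lower past a log2 ratio of 1 (median -0.04). For lists the minimum was 0.1 FPKM in either library, which 18426 genes of the table met, and of these 6.21% were higher and 9.18% lower, with a median of -0.03. The 2 lower genes encode transcription factors. Nfil3, which is known to support Il10 in T cells, was at 4.84 and 2.05 FPKM (log2 ratio -1.24, interval -1.46 to -1.02). Bhlhe40, a known repressor of Il10 in T cells, was at 37.3 and 16.5 FPKM (log2 ratio -1.18, interval -1.23 to -1.12). These factors were lower together, while their known effects on Il10 in T cells are opposite. Prdm1, which encodes Blimp-1 and which the study followed at the protein level, was at 2.31 and 2.19 FPKM, a log2 ratio of -0.08. Irf4, an activation-linked factor of B cells, was at 137 and 106 FPKM, a log2 ratio of -0.37. Socs3 was just short of the threshold at 12.6 and 6.61 FPKM (log2 ratio -0.93, interval -1.04 to -0.82). Of the 14 genes, 5 had ratios above 0 and 9 below, beside 53.0% below 0 for all genes at the list minimum. T cells transcribe several of these genes, and the T cell markers were lower as well. Their part in these values was not tested.

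IL-35 is formed by EBI3 and the p35 chain, and each chain has another partner: p35 pairs with p40 (Il12b) as IL-12, and EBI3 pairs with p28 (Il27) as IL-27. Il12a, the p35 gene, and Ebi3 were the 2 genes of the 10 with a higher level in the SJMHE1 library. Since they moved to the same side, the 250 bases just before their annotated starts follow, in RefSeq's GRCm38.p6. Il12a has 2 starts, and the second window lies in the first intron of the transcript that begins at the first. Capitals mark the only match within these 3 windows to the motifs searched on both strands.

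Ebi3, chr17:55952373-55952622, plus strand: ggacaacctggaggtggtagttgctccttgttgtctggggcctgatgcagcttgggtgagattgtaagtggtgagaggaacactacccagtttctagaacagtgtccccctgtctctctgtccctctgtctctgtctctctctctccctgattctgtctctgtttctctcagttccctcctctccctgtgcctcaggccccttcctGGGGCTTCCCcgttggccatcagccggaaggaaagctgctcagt
Il12a first start, chr3:68690394-68690643, plus strand: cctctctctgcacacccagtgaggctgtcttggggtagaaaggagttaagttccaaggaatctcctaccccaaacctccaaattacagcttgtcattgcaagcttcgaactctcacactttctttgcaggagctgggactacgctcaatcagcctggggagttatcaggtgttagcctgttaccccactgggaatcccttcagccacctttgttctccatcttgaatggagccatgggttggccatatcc
Il12a second start, chr3:68691174-68691423, plus strand: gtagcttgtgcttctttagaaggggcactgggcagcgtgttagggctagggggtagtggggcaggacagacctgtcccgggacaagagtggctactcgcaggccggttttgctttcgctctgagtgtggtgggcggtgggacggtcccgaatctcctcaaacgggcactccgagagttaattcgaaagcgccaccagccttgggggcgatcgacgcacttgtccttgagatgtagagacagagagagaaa

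The motifs were the TATA box (TATAAA), the AP-1 site (TGACTCA), the interferon-stimulated response element, the heat shock element core (GAANNTTC) and the NF-κB site. The capitals in the Ebi3 window are an NF-κB match, from 44 to 35 bases before the start. Such a match was present in 7.25% of 32851 RefSeq windows of this length, and the shares for the other motifs, in the order given, were 12.4%, 4.46%, 2.98% and 6.69%. Neither Il12a window held these letters. A match is a description of letters and no site was measured. Of the 10 genes, 8 had an entry in this table, and the search also matched the NF-κB site before Tgfb1 and the heat shock element core before Havcr1.

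Il12a (ENSMUSG00000027776, chromosome 3 from 68690644 to 68698547, plus strand) had the largest positive ratio of the 10 genes. Its FPKM was 11.9 in the PBS library, from 1110 counts, and 17.3 in the SJMHE1 library, from 1716 counts. The level was 1.46 times as high in the SJMHE1 library, a log2 ratio of 0.55 (interval 0.44 to 0.66), and 6.35% of all genes compared lay at least as far above 0. Among all expressed genes Il12a moved from rank 3778 to rank 2509 by FPKM. The counts were made per gene and do not say which start was used.

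Ebi3 (ENSMUSG00000003206, chromosome 17 from 55952640 to 55957022, plus strand) was at 5.03 FPKM in the PBS library, from 319 counts, and at 6.16 FPKM in the SJMHE1 library, from 413 counts. The Ebi3 level was 1.22 times as high in the SJMHE1 library, with a log2 ratio of 0.29 (interval 0.08 to 0.51). This gene shares 270 of its 1154 exonic bases, or 23.4%, with Gm16712 on the opposite strand, which was at 1.77 and 2.57 FPKM, a log2 ratio of 0.54 (interval 0.27 to 0.81). Whether the counting used strand is not stated, so reads in the bases shared by the pair cannot be told apart. The Ebi3 level is uncertain to that extent.

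The other partner chains were scarce. Il12b was at 0.21 and 0.10 FPKM, from 23 and 12 counts, so that its level was 0.0177 times that of Il12a in the PBS library and 0.00577 times in the SJMHE1 library. Il27 had 0 counts in both, which allows up to 3 counts, or 0.0622 and 0.0585 CPM. Ebi3, by contrast, was at 0.424 and 0.355 times the FPKM of Il12a. Of 7 tested genes of the IL-12 family and its receptors, none was higher and 3 were lower past a log2 ratio of 1, with a median of -0.27. They were Il12b, Il12rb1 (0.88 and 0.38 FPKM) and Il12rb2 (0.21 and 0.04 FPKM, from 44 and 8 counts), and all 3 lay under an FPKM of 1 in both libraries. T cells also transcribe both receptor genes, and the part of the lower T cell markers in their values was not tested. Il12rb2 and gp130 (Il6st) are the receptor chains described for IL-35, and Il6st was at 3.37 and 2.79 FPKM.

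TGF-β1 is secreted in a latent form that needs release before it can bind its receptors. Tgfb1 (ENSMUSG00000002603, chromosome 7 from 25687002 to 25705077, plus strand) was at 38.5 FPKM in the PBS library, from 10644 counts, and at 34.4 FPKM in the SJMHE1 library, from 10074 counts. Among the 4 cytokine genes it had the highest FPKM in both libraries, and its level was 0.894 times as high in the SJMHE1 library. The log2 ratio of -0.16 had a narrow counting interval, -0.20 to -0.12. With each library rescaled to the same sum of FPKM the ratio was -0.08. The receptor gene Tgfbr2 was at 36.1 and 36.5 FPKM, a log2 ratio of 0.02 (interval -0.01 to 0.05). Of 12 tested genes of TGF-β isoforms, receptors, release factors and Smads, none was higher and 2 were lower past a log2 ratio of 1 (median -0.06). These were Tgfbr3, at 0.18 and 0.03 FPKM, and Lrrc32, which encodes the TGF-β anchor GARP of regulatory T cells, at 0.28 and 0.09 FPKM.

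PD-L1, the product of Cd274, engages PD-1 on T cells and dampens their activation. Cd274 (ENSMUSG00000016496, chromosome 19 from 29367455 to 29388095, plus strand) was at 38.5 FPKM in the PBS library, from 7652 counts, and at 28.7 FPKM in the SJMHE1 library, from 6042 counts. The Cd274 level was 0.746 times as high in the SJMHE1 library (log2 ratio -0.42, interval -0.47 to -0.37), and 12.1% of all genes compared lay at least as far below 0. On the opposite strand AC119228.1 overlaps 14.1% of the exonic bases of Cd274. It was at 6.91 and 5.20 FPKM, a log2 ratio of -0.41. Reads in the bases shared by this pair cannot be told apart either. The second PD-1 ligand gene, Pdcd1lg2, was at 4.73 and 4.67 FPKM, a log2 ratio of -0.02. Cd274 thus stood 8.14 times above Pdcd1lg2 in the PBS and 6.15 times above it in the SJMHE1 library. None of 6 genes of the PD-1 axis passed a log2 ratio of 1 (median -0.22), and 1 had a ratio above 0 and 5 below. Pdcd1, the PD-1 gene, lay exactly at the lower threshold. It was at 0.76 and 0.38 FPKM, from 81 and 43 counts (interval -1.57 to -0.45). The part of the lower T cell markers in the Pdcd1 value was not tested. Cmtm6, whose product keeps PD-L1 at the cell surface, was at 37.3 and 37.8 FPKM (log2 ratio 0.02, interval -0.03 to 0.07).

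CD39 (Entpd1) converts extracellular ATP and ADP to AMP, and CD73 (Nt5e) converts AMP to adenosine. Entpd1 (ENSMUSG00000048120, chromosome 19 from 40612366 to 40741602, plus strand) was at 5.64 FPKM in the PBS library, from 1731 counts, and at 5.32 FPKM in the SJMHE1 library, from 1727 counts. This was the only one of the 10 genes whose counting interval included 0 in the scaling used. The log2 ratio was -0.08 (interval -0.18 to 0.01). Nt5e (ENSMUSG00000032420, chromosome 9 from 88327197 to 88372092, plus strand) was at 1.15 FPKM, from 545 counts, and at 0.93 FPKM, from 465 counts. Its log2 ratio was -0.31 (interval -0.49 to -0.13). Nt5e was the scarcer enzyme gene in both libraries, at 0.204 and 0.175 times the FPKM of Entpd1. Regulatory T cells also carry both enzymes, and the part of the lower T cell markers in the Nt5e value was not tested.

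Of 10 tested genes that form, degrade, transport or bind adenosine, 2 were higher and none was lower past a log2 ratio of 1 (median -0.01). Both encode adenosine receptors and were nearly silent. Adora2b had 4 and 27 counts (0.03 and 0.24 FPKM), and Adora3 had 14 and 40 counts (0.07 and 0.18 FPKM). The receptor gene Adora2a, at 5.15 and 3.01 FPKM, had a log2 ratio of -0.77, and T cells, whose markers were lower, transcribe it too. Their part in this value was not tested. Cd38, the most abundant gene of the list, which encodes an ectoenzyme on B cells, was at 30.2 and 43.4 FPKM (log2 ratio 0.52, interval 0.48 to 0.57).

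TIM-1, the product of Havcr1, is a phosphatidylserine receptor by which IL-10-competent B cells have been enriched. Havcr1 (ENSMUSG00000040405, chromosome 11 from 46735080 to 46779578, plus strand) was at 4.76 FPKM in the PBS library, from 605 counts, and at 3.20 FPKM in the SJMHE1 library, from 432 counts. It was lower in the SJMHE1 library, with a log2 ratio of -0.57 (interval -0.75 to -0.39). Of all 50-base windows in its transcripts, 4.60% also occur in other genes, Timd2 among them, which was at 0.67 and 0.39 FPKM. Timd4, the TIM-1 ligand gene, had 28 and 12 counts. Of the 7 genes listed as partners of TIM-1, CD24 and CD5, none was higher and 2 were lower past a log2 ratio of 1, Timd4 and Cd6, with a median of -0.77.

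CD24 is a small glycoprotein anchored in the membrane, high on immature B cells. Cd24a (ENSMUSG00000047139, chromosome 10 from 43578284 to 43584265, plus strand) was at 148 FPKM in the PBS library, from 21010 counts, and at 139 FPKM in the SJMHE1 library, from 20775 counts. It was the most abundant of the 10 genes, at percentile 98.9 and 98.8 of all expressed genes. The level in the SJMHE1 library was 0.934 times that in the PBS library, a log2 ratio of -0.10 (interval -0.13 to -0.07). The ratio was -0.02 with each library rescaled to the same sum of FPKM. Markers of immature B cells that could be compared were Vpreb3, at 24.3 and 25.6 FPKM, and Cd93, at 1.85 and 1.79 FPKM, and neither passed a log2 ratio of 1. Siglecg, whose product binds CD24, was at 104 and 112 FPKM. Of the 50-base windows in Cd24a transcripts, 2.75% also occur in Gm6212, so a small part of its level is uncertain.

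CD5 is carried by T cells and by B-1a cells, and together with high CD1d it defines the IL-10-producing B10 cells. Cd5 (ENSMUSG00000024669, chromosome 19 from 10717116 to 10739002, minus strand) was at 1.94 FPKM in the PBS library, from 529 counts, and at 0.74 FPKM in the SJMHE1 library, from 216 counts. This was the widest gap of the 10 genes, 0.381 times the PBS level. The log2 ratio was -1.39, and its interval, -1.63 to -1.16, lay wholly below -1. Of all genes compared, 1.93% lay at least as far below 0. With a pseudocount of 1 the log2 ratio was -0.76, and Cd5 then no longer passed the threshold. Cd1d1, the other B10 marker gene, was at 15.0 and 16.4 FPKM, a log2 ratio of 0.14.

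Genes of T cells were lower alongside Cd5. Of 18 T cell markers, 16 were lower past a log2 ratio of 1, none was higher, and the median was -2.05. The log2 ratios lay from -2.96 for Cd8b1 and -2.65 for Il7r to -1.17 for Lat among these 16, with Cd3g at -1.42. The other 2 were Cd2 (92.5 and 68.0 FPKM), which mouse B cells also carry, and Lck (27.9 and 25.2 FPKM). The list summed to 193 FPKM in the PBS and 112 in the SJMHE1 library, and no marker was at 0 counts in either. Cd2 and Lck made up most of both sums. Without them, a choice made after the values were seen, the other 16 summed to 72.8 and 18.5 FPKM, or 0.255 times the PBS level. Cd6, which lies beside Cd5 in the genome and is likewise known from T cells, was at 1.37 and 0.28 FPKM (log2 ratio -2.29, interval -2.58 to -2.02). Cd5 stood at 1.10 times the FPKM of Cd3e in the PBS and at 1.90 times in the SJMHE1 library, so it was lower by a smaller ratio than Cd3e. Regulatory T cell markers were lower past a log2 ratio of 1 for 5 of 6 genes (median -1.54), with Ctla4 at 4.11 and 1.48 FPKM and Foxp3 at 1.08 and 0.42 FPKM. The part of these cells in the Cd5 value was not tested.

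Of 6 markers of the B-1 lineage none passed a log2 ratio of 1. All 6 ratios were below 0, with a median of -0.59. Of all genes at the list minimum, 53.0% were below 0, with a median of -0.03. The part of other cells, T cells with their lower markers among them, in these 6 values was not tested. Ahnak, the most abundant of them, was at 27.6 and 15.6 FPKM (log2 ratio -0.82, interval -0.85 to -0.80), while Spn, which encodes CD43, was at 7.13 and 6.96 FPKM (log2 ratio -0.03, interval -0.13 to 0.06). B cell markers, in comparison, had a median of 0.02 and lay between -0.14 and 0.23, with Cd74, the most abundant, at 4643 and 4297 FPKM. Cd72, a B cell gene whose product has been described as a CD5 ligand, was at 128 and 152 FPKM.

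**Figure D3:**
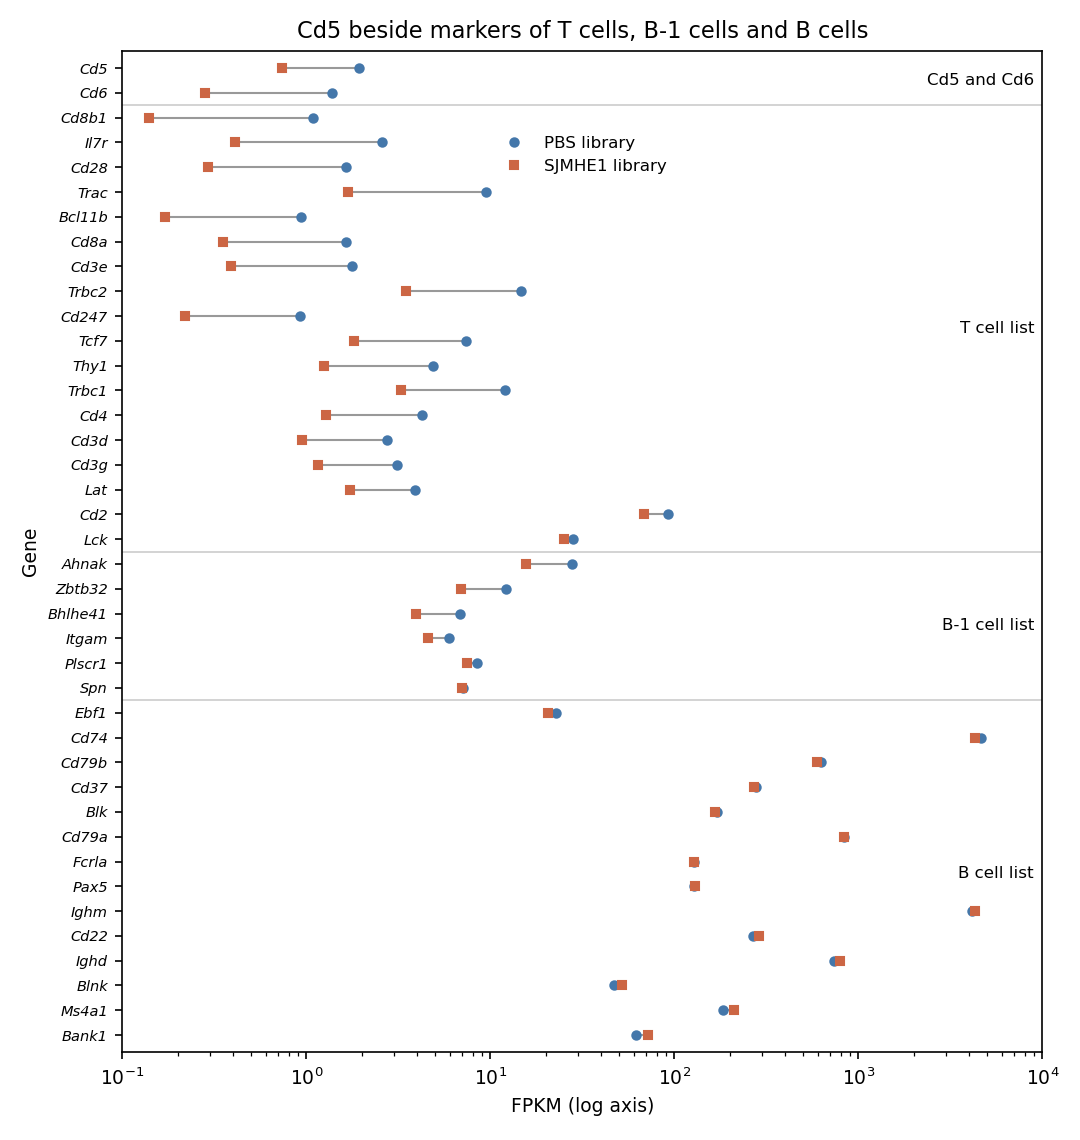
FPKM on a log axis (x) of Cd5 and Cd6 and of the T cell markers, the B-1 cell markers and 14 B cell markers (y), in the PBS library (circles) and the SJMHE1 library (squares), joined by a line per gene. Cd5 goes from 1.94 to 0.74 beside T cell markers that are lower in the SJMHE1 library, while the B cell markers nearly coincide.

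Of 18 further genes tied to Bregs, 2 were higher and 4 lower past a log2 ratio of 1, with a median of 0.02. The lower 4 were Gzmb (2.39 and 0.35 FPKM), Fasl (0.35 and 0.03 FPKM), Tigit (1.08 and 0.28 FPKM) and Ctla4, which encode granzyme B, a death ligand and 2 inhibitory receptors. NK cells and T cells also transcribe these genes, and 6 of 8 NK cell markers were lower past the same threshold (median -1.37), with Klrd1, Nkg7, Ncr1 and Gzma between -1.89 and -1.15 and none at 0 counts. The NK cell list summed to 16.2 FPKM in the PBS and 7.15 in the SJMHE1 library, and its part in these values was not tested. The 2 higher genes were Hspa1a and Hspa1b, which encode HSP70. Hspa1a was at 153 and 1598 FPKM and Hspa1b at 176 and 2127 FPKM, log2 ratios of 3.39 and 3.60. They are near copies of each other, so the level of each is uncertain. Of the 18 genes, 9 had ratios above 0 and 9 below. Short of the threshold, Cr2 was at 136 and 218 FPKM (log2 ratio 0.68) and Cd44 at 11.6 and 7.29 FPKM (log2 ratio -0.67).

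Over all 7 lists of receptors, regulators and further Breg genes, 74 genes could be compared. Of these, 4 were higher (5.41%) and 13 lower (17.6%) past a log2 ratio of 1, and the median was -0.06. At the same minimum, 6.21% of all genes were higher and 9.18% lower. Among the list genes past the threshold, 2 higher and 6 lower reached 1 FPKM in either library. These were Hspa1a and Hspa1b above, and Nfil3, Bhlhe40, Cd6, Gzmb, Tigit and Ctla4 below. At 1 FPKM, 2.43% of all genes compared were higher and 3.57% lower. The part of T cells and NK cells in the lower values was not tested.

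**Figure D4:**
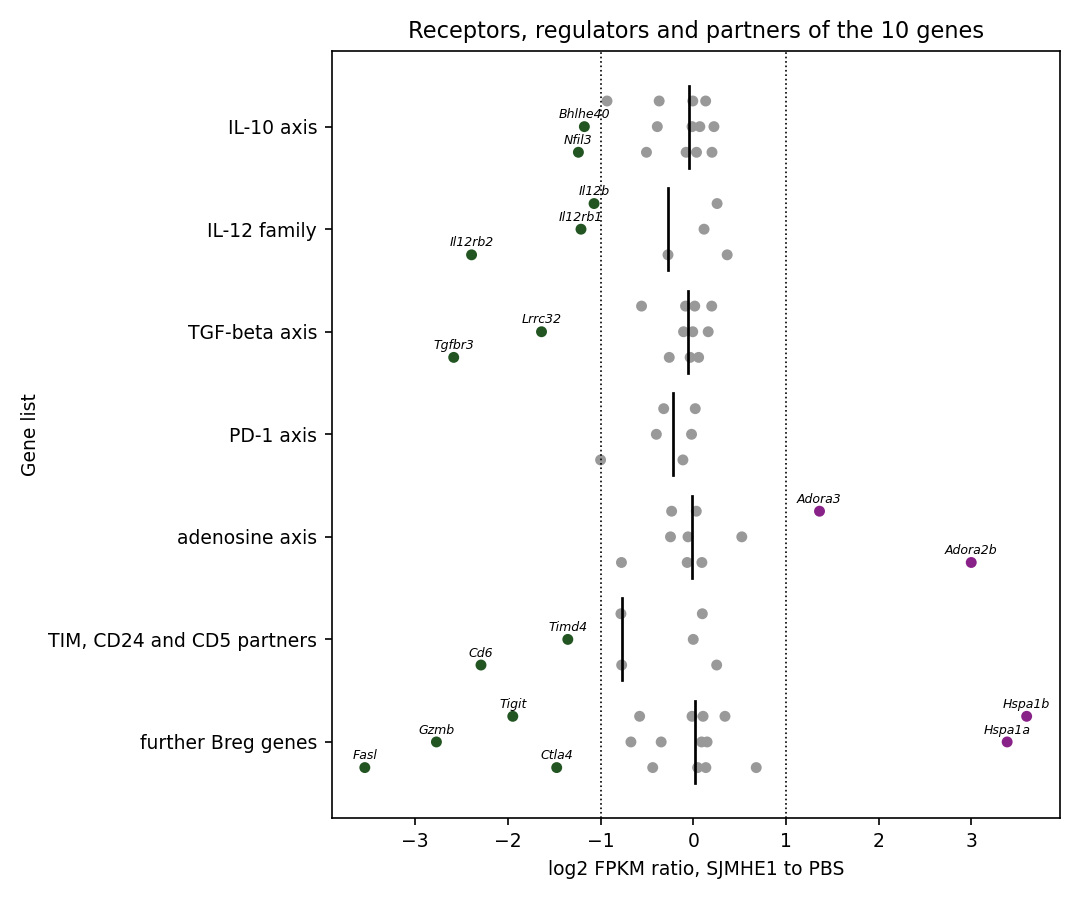
The log2 FPKM ratio of SJMHE1 to PBS (x axis) of each tested gene in the 7 lists (y axis), with the list median as a vertical line, dotted lines at -1 and 1, and names for genes past them. Of the 74 points, 57 lie from -1 to 1, and the 13 genes left of -1 include Gzmb at -2.77 and Cd6 at -2.29.

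Markers of other cells that the B cell sort could hold were compared too, since several transcribe the genes described here. None of 9 neutrophil markers passed a log2 ratio of 1, and 4 had ratios above 0 and 5 below, with a median of -0.22. S100a9, the most abundant, was at 196 and 266 FPKM, and Csf3r was at 16.2 and 8.37 FPKM (log2 ratio -0.96). Of 10 dendritic cell markers, 4 were lower, among them Siglech at 2.14 and 0.39 and Itgax at 3.23 and 1.61 FPKM, and of 6 basophil and mast cell markers, 4 were lower, among them Prss34 at 2.38 and 0.11 FPKM and Cpa3 at 2.07 and 0.28 FPKM. Macrophage and monocyte markers were split, with 3 of 15 higher (C1qb, C1qc and Cd14, log2 ratios 1.01, 1.20 and 1.04) and 2 lower, of which Lyz2 was at 88.8 and 37.4 FPKM. The lists of other cells differ in size and level, and their part in the values above was not tested. All 9 erythroid markers had ratios above 0, with a median of 0.62 and sums of 154 and 203 FPKM, and Epor passed the threshold (0.84 and 2.02 FPKM). Of the 18426 genes at the list minimum, 8485 had ratios above 0. Of 8 plasma cell markers Tnfrsf17, at 1.93 and 0.87 FPKM, was lower. None of 7 marginal zone markers passed, and 3 had ratios above 0 and 4 below, with a median of -0.01. Mzb1 was at 94.3 and 89.3 FPKM. S1pr3 had the highest ratio of the 7, at 10.2 and 15.3 FPKM (log2 ratio 0.59, interval 0.52 to 0.66). Of 5 tested endothelial and stromal genes, Cxcl13 was higher from 4 and 19 counts, and Pecam1, which leukocytes share, was at 38.0 and 37.1 FPKM. The 11 housekeeping genes lay between -0.40 and 0.14, with Eef1a1 at 3403 and 3019 FPKM.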

How the data were processed

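RNA of sorted splenic B cells was depleted of rRNA and sequenced by LC-BIO, with 3 mice mixed per library. The submitters' processing notes name bcl2fastq 2.0, HISAT2, StringTie, DESeq2 and limma and the build mm10, without roles, and the study used the LC-Bio Cloud Platform. The annotation and strand setting are not given in the sources used here. As deposited, the authors' counts are raw whole numbers. Their deposited FPKM, which divide by gene length and library size, carry 2 decimals. The names of 2 value columns fit none of the samples, so these were left out and no comparison with Control was made.

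The members and gene lists were chosen with earlier results of these data known. The measure was the log2 FPKM ratio without a pseudocount. Its 95% Clopper-Pearson interval comes from the 2 counts and covers counting error only. Genes entered with 1 FPKM or more in either library (0.1 for lists) and a value above 0 in each. edgeR's quasi-likelihood test could not be fitted with 1 library per group. The genes named were the 10 members and, in each list, those past a log2 ratio of 1 that reached 1 FPKM in either library (the 2 highest and 2 lowest ratios where there were more than 4), or else the most abundant gene. Others were chosen after their values were seen. The gene that the rule gives for the IL-12 family is not reported here. Alternatives were pseudocounts, scalings, edgeR's TMM and DESeq2's size factors on the counts, filters and thresholds. Coordinates of the 10 genes equal those of GENCODE M21 (GRCm38). The ratio and its interval were tested on simulated data that held counting error only, not differences between mice or libraries. Python 3.11.15, numpy 2.4.6, pandas 2.3.3, scipy 1.17.1, matplotlib 3.10.9, R 4.3.3, edgeR 4.0.16 and DESeq2 1.42.0 were used.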

Additional observations from a re-analysis of the deposited data

How the results depend on the processing

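No paired analysis was possible because the PBS and SJMHE1 groups are 1 library each, which also left no replicate to omit. All 10 genes kept the sign of their ratio in the 8 alternatives of pseudocount and scaling that were run. Outside their counting intervals lay Tgfb1 at -0.078 with rescaled sums and -0.12 with DESeq2's size factors, Cd274 at -0.34 with rescaled sums, Cd24a at -0.015 with rescaled sums, -0.068 without the 50 most abundant genes and -0.054 with DESeq2's size factors, and Cd5 at -0.76 with a pseudocount of 1. The pseudocount pulls low genes toward 0 by construction. Cd5 was then not past the threshold, which left 0 of the 10 genes, and 0 were left where each library had to reach 1 FPKM, since Cd5 then was not compared. Rescaled sums shifted all ratios by 0.083. The numbers of all genes past the threshold, higher and lower, were 100 and 146 with a pseudocount of 1, 1367 and 2018 unfiltered, 101 and 151 where each library had to reach 1 FPKM, 52 and 93 where either had to reach 5, 89 and 171 for protein-coding genes and 712 and 983 at 1.5-fold. In the 7 lists they were 2 and 3 with a pseudocount of 1 and 2 and 6 where either library had to reach 1 FPKM, and in the T cell list 8 were lower with a pseudocount of 1. Depth limits Il10 most, whose ratio rests on 129 and 92 counts.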
